A study of Mus musculus with 90 samples.

Results

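The 10 genes described here encode histone chaperones and nucleoplasmins: Npm2, Npm3, Nap1l1, Nap1l4, Asf1a, Asf1b, Hira, Chaf1a, Chaf1b and Nasp. They were taken by symbol from the 24422 genes of the deposited count table, and all 10 were among the 16511 genes that were expressed well enough to be tested. The counts come from single mouse oocytes and embryos of the outbred CD-1 strain, in which the 5′ end of each captured transcript was read and duplicate reads were merged by their molecular identifiers, with ERCC RNA added through the reverse transcriptase mix. Females 1 to 3 months old were either WT or homozygous knockouts of Plag1, a zinc finger transcription factor, and were superovulated. Unmated females gave MII oocytes, collected 21-23 h after hCG, and females mated with WT males gave embryos that were cultured to the 2-cell stage (2c, 45-47 h after fertilization) and the 8-cell stage (8c, 71-73 h). Embryos of knockout mothers carry the paternal Plag1 allele and lack the maternal one, and are called matPlag1KO, as are the oocytes of these mothers. The cultured embryos of both genotypes had WT fathers.

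Histone chaperones bind histones that are not on DNA and hand them to the enzymes and sites that build or take apart nucleosomes. In the fertilized egg they carry much of the load of remodeling, because sperm chromatin exchanges its protamines for maternal histones, both parental genomes are repackaged, and each cleavage needs new nucleosomes at the replication forks before the embryo makes many histones of its own. Nucleoplasmins and the NAP family bind mainly H2A-H2B, ASF1 and NASP carry H3-H4, and CAF-1 and HIRA place H3-H4 on DNA, CAF-1 behind the fork and HIRA independently of replication with the variant H3.3. Many of these proteins are stored in the oocyte, so a transcript level says nothing of the protein still present.

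Levels within a stage are given as CPM, the count of a gene relative to the TMM-scaled total of its library. After 12 of 90 libraries with a median under 1 CPM were left out, 16 WT and 14 matPlag1KO oocytes, 11 and 11 2c embryos and 15 and 11 8c embryos remained, spread over 2 separately made pools called plates A and B. Gene counts per library ran from 222357 to 2502421 in oocytes, from 92475 to 256529 at 2c and from 214053 to 696870 at 8c, so a gene with few transcripts was seen least well at 2c. The labels do not name the mother of each oocyte or embryo, so p-values measure the spread between these samples, some of which may share a mother. Libraries from the same well position of the 2 plates also went together in part, and outside the well block they were treated as independent. Of the targeted gene, Plag1, a count was found in all 16 WT oocytes and 3 of 14 matPlag1KO ones. At 2c it was found in 1 of 11 WT embryos and 9 of 11 labelled matPlag1KO, and at 8c in 5 of 15 and 4 of 11. At 2c its order was therefore opposite to that in oocytes, and the label of these embryos is kept below as a label. Embryos of knockout mothers carry a WT paternal allele, so a Plag1 count in them does not by itself go against their label. An exchange of the 2c labels would turn the sign of each genotype difference at 2c given here, and the source of the Plag1 counts was not tested. The 8 oocyte markers (Zp1 to Zp3, Gdf9, Bmp15, Oosp1, Mos and H1foo) had summed median levels of 8286 CPM in WT and 24985 CPM in matPlag1KO oocytes, and of 83.3 and 134 CPM at 8c. Of 8 2c markers 6 had counts at 2c in both genotypes, with Tcstv1 and Tcstv3 at 0, and the summed level of the 2c list did not pass 12.2 CPM in oocytes or 8c embryos. The 8 8c markers reached summed medians of 2191 CPM in WT (1193 to 3870) and 906 CPM in matPlag1KO 8c embryos (483 to 3692). In WT and matPlag1KO oocytes their medians were 783 CPM (420 to 1280) and 689 CPM (355 to 1769), and at 2c 368 and 416 CPM. The 8c ranges thus overlapped those of oocytes in both genotypes. Cumulus and granulosa cell markers stayed at or below 26.8 CPM when all 8 were summed. Of 4 markers of spermatozoa or blood, Prm2 had counts and Prm1, Hbb-b1 and Ptprc had none. Their sum ran from 0 to 105 CPM in WT oocytes (median 7.74) and from 2.13 to 81.1 CPM in matPlag1KO oocytes (median 7.57). It reached 17.9 and 33.8 CPM at 2c and was 0 at 8c. The source of the Prm2 counts was not tested.

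Promoter sequences were read for 8 of the 10 genes from RefSeq (mouse GRCm38.p6, 250 bases before to 50 bases after the annotated start), and Npm2 and Nap1l4 had no entry. The promoter of Nasp is printed because Nasp was the gene that differed between genotypes, and those of Asf1b and Hira because they moved in opposite directions between oocyte and 8c embryo. Capitals mark CCAAT and the GC box GGGCGG on either strand, so that ATTGG and CCGCCC are the same motifs read from the other strand. The Nasp promoter lay at chr4:116627902-116628201 on the minus strand, that of Asf1b at chr8:83955444-83955743 on the plus strand and that of Hira at chr16:18876500-18876799 on the plus strand.
Nasp: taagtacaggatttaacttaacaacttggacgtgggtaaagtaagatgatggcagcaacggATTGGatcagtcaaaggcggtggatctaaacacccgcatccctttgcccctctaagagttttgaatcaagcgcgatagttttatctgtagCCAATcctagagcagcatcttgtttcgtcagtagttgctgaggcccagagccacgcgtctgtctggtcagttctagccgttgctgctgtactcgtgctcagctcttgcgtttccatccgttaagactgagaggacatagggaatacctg
Asf1b: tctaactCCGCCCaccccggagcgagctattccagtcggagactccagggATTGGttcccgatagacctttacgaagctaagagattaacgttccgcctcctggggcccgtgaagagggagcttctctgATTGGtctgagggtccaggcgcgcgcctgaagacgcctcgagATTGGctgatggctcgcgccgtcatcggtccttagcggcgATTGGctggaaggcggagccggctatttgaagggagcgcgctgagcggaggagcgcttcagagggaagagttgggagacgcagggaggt
Hira: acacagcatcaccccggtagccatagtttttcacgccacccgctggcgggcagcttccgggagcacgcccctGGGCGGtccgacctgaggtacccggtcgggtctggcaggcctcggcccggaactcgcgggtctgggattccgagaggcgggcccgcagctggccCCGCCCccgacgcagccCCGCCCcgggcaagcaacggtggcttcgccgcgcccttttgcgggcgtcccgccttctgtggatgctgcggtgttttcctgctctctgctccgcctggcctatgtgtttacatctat
Nasp had CCAAT at 2 places, at -189 to -185 on the reverse strand and at -99 to -95 on the forward strand, and no GC box in this window. Asf1b had 4 copies of CCAAT, all on the reverse strand between -200 and -35, and 1 GC box. Hira had no CCAAT and 3 GC boxes.
CCAAT was present in 5 of the 8 promoters (Nap1l1, Asf1a, Asf1b, Chaf1a and Nasp) and in 37.4% of the 32851 promoters of the same length. GGGCGG was present in 6 of 8 (Npm3, Asf1a, Asf1b, Hira, Chaf1a and Chaf1b) against 35.7%, TATAAA in 0 of 8 against 13.6%, and any of the E2F octamers TTTCGCGC, TTTGGCGC and TTTCCCGC in 0 of 8 against 1.84%. These motifs, too, were searched on both strands. The PLAG1 consensus was matched in Npm3, Nap1l1 and Hira, 3 of 8 against 9.46%. In Hira the match, from -81 to -66, overlapped GC boxes that began at -84 and -67, and in Npm3 the match from -26 to -11 contained the GC box at -18 to -13. Nasp had no match to the PLAG1 consensus. The longer de novo PLAG1 motif of the authors, and the wider promoter window in which they sought it, were not searched.

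The first comparison asked how each chaperone transcript changed from the oocyte to the embryo when cleavage began. On a scale of counts per 1000 spike-in counts, which follows the amount per embryo where each well received the same volume of the reverse transcriptase mix that carried the spike-in RNA, most of these transcripts fell from MII to 2c. In WT, 8 of the 10 genes were lower at 2c and 1, Hira, was higher, by edgeR's quasi-likelihood test at a Benjamini-Hochberg adjusted p under 0.05. Of all genes tested, 65.4% were called in this comparison, 51.3% as lower and 14.1% as higher. The all-gene median of the log2 fold change was -1.46, and that of the 10 genes -2.45. From 2c to 8c Nap1l1, Chaf1b and Nasp rose and Npm2 fell again, 3 and 1 of 10, where 31.9% of all genes were called as higher and 16.2% as lower (48.1% in all) and the all-gene median was 0.53. From MII to 8c 2 genes were higher and 6 lower, against 27.1% and 43.6% of all genes. In matPlag1KO 0 of 10 were higher and 8 lower from MII to 2c (13.5% and 50.3% of all genes), 4 higher and 1 lower from 2c to 8c (29.1% and 19.5%), and 2 higher and 6 lower from MII to 8c (24.1% and 45.2%). A change per embryo and a change per cell cannot be told apart on this scale.

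**Figure D1:**
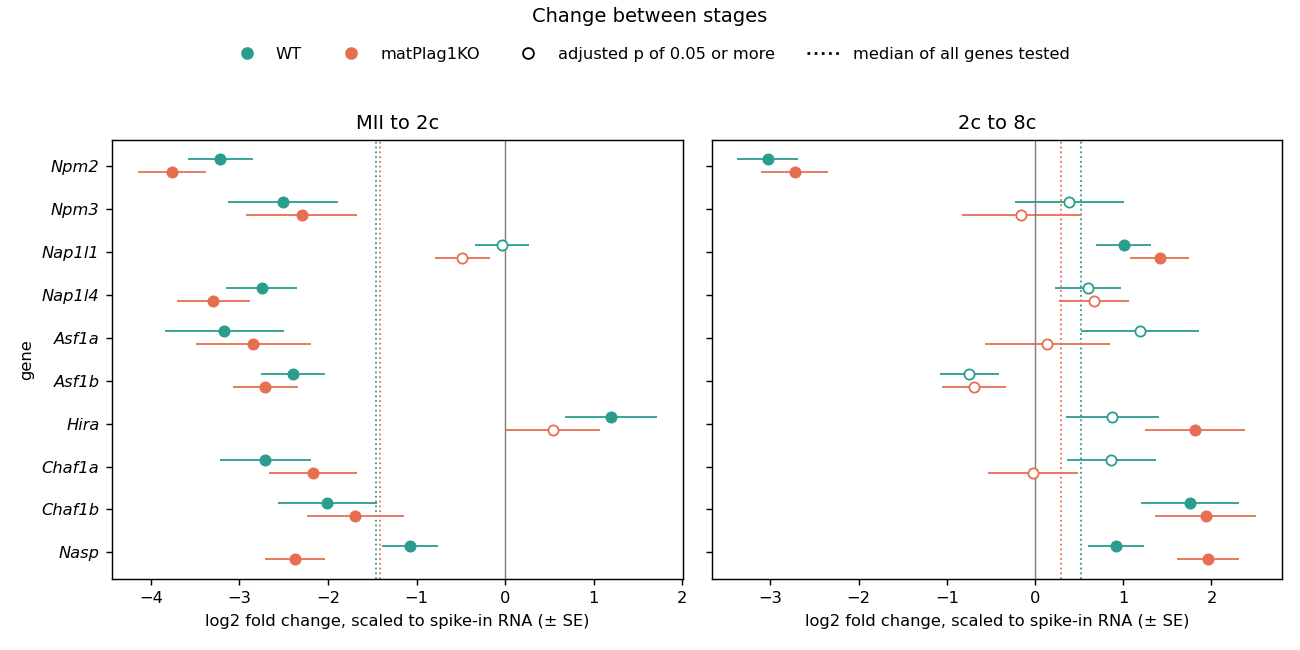
Log2 fold changes of the 10 genes from MII to 2c (left) and from 2c to 8c (right) on the spike-in scale, with bars of 1 SE. Green points are WT and orange points matPlag1KO, filled at an adjusted p under 0.05. Dotted lines give the median of all 16511 genes tested, which was -1.46 in WT from MII to 2c. Npm2 lies far to the left in both panels, and Hira and Nap1l1 lie to the right of both dotted lines in the left panel.

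Npm2 (chr14:71047109-71052891, minus strand, mm9), the oocyte nucleoplasmin that acts on sperm chromatin and on the nucleolus-like bodies of the egg, fell the most. WT oocytes held 6.01 to 241 counts per 1000 spike-in counts with a median of 85.7, WT 2c embryos 6.08 to 19.5 with a median of 9.67, and WT 8c embryos 0.519 to 2.20 with a median of 1.27. All 15 WT 8c embryos were below all 11 WT 2c embryos, and 15 of 16 WT oocytes were above the 2c median, while the lowest oocyte was below every 2c embryo. The level was 9.28-fold lower at 2c than at MII (log2 fold change -3.21, SE 0.37, adjusted p = 3.72e-12), a further 8.16-fold lower at 8c (-3.03, SE 0.34, adjusted p = 3.06e-12) and 75.8-fold lower at 8c than at MII. In matPlag1KO the medians were 154, 9.87 and 2.11, with no overlap between any of the 3 stages, and the fall from MII to 8c was 89.6-fold. Of all genes, 70.7% were called between MII and 8c in WT and 69.3% in matPlag1KO. How many of all genes had groups without overlap was not computed, so the separations given here and for the genes below are descriptions only.

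Npm3 (chr19:45822224-45824053, minus strand), a small nucleoplasmin that binds NPM1 in the nucleolus, was a rare transcript. Its 14 of 16 WT oocytes with a count gave a median of 1.03 per 1000 spike-in counts, with a range of 0 to 4.80. At 2c it had 21 counts in all 11 WT libraries together and a median of 0.108. The fall to 2c was 5.68-fold in WT (log2 fold change -2.51, SE 0.62, adjusted p = 3.10e-04) and 4.91-fold in matPlag1KO (-2.30, SE 0.62, adjusted p = 1.02e-03). From 2c to 8c it was not called in WT (0.39, SE 0.62) or matPlag1KO (-0.16, SE 0.67), and a change of this size was not detectable at these counts.

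Of the NAP family, which shuttles H2A-H2B into the nucleus, Nap1l4 and Nap1l1 moved apart. Nap1l4 (chr7:150699484-150735025, minus strand) held 3.03 to 69.8 counts per 1000 spike-in counts in WT oocytes (median 10.1), 0.912 to 4.19 at 2c (median 2.44) and 1.60 to 6.30 at 8c (median 3.70). Of the 11 WT 2c embryos 8 were below every WT oocyte, and the fall was 6.71-fold (log2 fold change -2.75, SE 0.40, adjusted p = 8.48e-09). In matPlag1KO it was 9.80-fold (-3.29, SE 0.42), and no matPlag1KO 2c embryo reached the lowest matPlag1KO oocyte. Nap1l1 (chr10:110910248-110935206, plus strand), the most widely expressed member of the family in somatic tissues, had nearly the same median in WT oocytes (2.16, range 0.949 to 6.83) and 2c embryos (2.26, range 1.19 to 5.67). At 8c its median was 4.80 and its range 3.36 to 8.92, so that all 15 8c embryos were above the 2c median, although the ranges overlapped. The rise from 2c to 8c was 2.01-fold in WT (1.01, SE 0.31, adjusted p = 5.20e-03) and 2.66-fold in matPlag1KO (1.41, SE 0.33, adjusted p = 2.51e-04).

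Asf1b and Asf1a encode the 2 mouse forms of ASF1, which takes new H3-H4 from importins and passes it to CAF-1 or HIRA. Asf1b (chr8:86479593-86494094, plus strand), the form tied to dividing cells, had a WT oocyte median of 19.0 counts per 1000 spike-in counts (10.8 to 87.0), a 2c median of 3.34 (1.79 to 12.1) and an 8c median of 2.76 (0.400 to 4.15). Of the 11 WT 2c embryos 10, and all 15 WT 8c embryos were below every WT oocyte. The fall to 2c was 5.26-fold (log2 fold change -2.39, SE 0.36, adjusted p = 1.87e-08) in WT and 6.52-fold in matPlag1KO (-2.71, SE 0.37, adjusted p = 1.29e-09), and from 2c to 8c it was not called in either (WT -0.75, SE 0.33, adjusted p = 0.0571, matPlag1KO -0.69, SE 0.36, adjusted p = 0.108). Asf1a (chr10:53316767-53329021, plus strand) fell 8.99-fold to 2c in WT (-3.17, SE 0.67, adjusted p = 3.13e-05), from a median of 0.560 with counts in 15 of 16 oocytes to 0.103 with 10 counts in all 11 embryos. Its whole interval lies within Mcm9 on the opposite strand, and because the strand setting of the counting is not given in the sources used here, reads of the 2 genes cannot be told apart with certainty.

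Hira (chr16:18876843-18970401, plus strand), the subunit that gives the H3.3 deposition complex its name, went the other way. A count was present in 10 of 16 WT oocytes and in all 11 WT 2c and all 15 WT 8c embryos. Its levels per 1000 spike-in counts were 0 to 3.37 in WT oocytes (median 0.191), 0.108 to 1.88 at 2c (median 1.08) and 1.03 to 4.14 at 8c (median 1.96). Of the 11 WT 2c embryos 10 were above the oocyte median, but the highest oocyte was above every 2c embryo. The rise from MII to 2c was 2.29-fold (log2 fold change 1.20, SE 0.52, adjusted p = 0.0374) and that from MII to 8c 4.21-fold (2.07, SE 0.49, adjusted p = 1.11e-04). In matPlag1KO the change from MII to 2c was 0.54 (SE 0.54, adjusted p = 0.385) and that from 2c to 8c 1.81 (SE 0.57, adjusted p = 5.86e-03), which in WT was 0.88 (SE 0.52, adjusted p = 0.160). The WT rise to 2c was not called when all libraries were kept (1.03, adjusted p = 0.0734), with plate as a term (1.12, adjusted p = 0.0579) or in plate A alone (0.50, adjusted p = 0.634).

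The 2 large subunits of CAF-1 were both lower at 2c than at MII, and after 2c Chaf1b was called as higher and Chaf1a was not. The difference between their changes was not tested. Chaf1a (chr17:56179839-56207449, plus strand), which binds PCNA at the fork, had medians of 1.18 in WT oocytes (0.418 to 10.7), 0.359 at 2c (0 to 0.821) and 0.555 at 8c (0.0944 to 2.29) per 1000 spike-in counts. It fell 6.52-fold to 2c (log2 fold change -2.71, SE 0.52, adjusted p = 5.04e-06). Between 2c and 8c its change did not pass the test in WT (0.86, SE 0.51, adjusted p = 0.152) or in matPlag1KO (-0.02, SE 0.51). Chaf1b (chr16:93884146-93906351, plus strand), its partner in the complex, had medians of 0.994 (0.109 to 17.8), 0.658 (0.0876 to 1.44) and 1.70 (1.02 to 5.62). The oocytes were spread more widely than the embryos, and the fitted level was 4.01-fold lower at 2c (-2.01, SE 0.56, adjusted p = 1.26e-03). It then rose 3.37-fold to 8c in WT (1.75, SE 0.56, adjusted p = 6.56e-03) and 3.83-fold in matPlag1KO (1.94, SE 0.57, adjusted p = 3.45e-03), and at 8c it was not called against MII in either genotype (WT -0.25, SE 0.46, matPlag1KO 0.24, SE 0.51).

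Nasp (chr4:116273657-116300556, minus strand), the linker histone and H3-H4 chaperone that keeps a soluble pool of histones, fell the least of the 8 genes that fell in WT. Its levels per 1000 spike-in counts were 1.25 to 34.9 in WT oocytes (median 9.63), 4.75 to 13.2 at 2c (median 6.23) and 5.60 to 20.2 at 8c (median 14.7). The WT groups overlapped at every step. The fall to 2c was 2.11-fold (log2 fold change -1.07, SE 0.32, adjusted p = 2.31e-03) and the rise to 8c 1.89-fold (0.91, SE 0.32, adjusted p = 0.0135). In matPlag1KO both steps were larger in size, a 5.18-fold fall from a median of 20.9 to 3.78 (-2.37, SE 0.34, adjusted p = 6.20e-09) and a 3.89-fold rise to 14.0 (1.96, SE 0.35, adjusted p = 1.81e-06). The difference between genotypes in these steps was not called on this scale for any of the 10 genes. All gene counts together per 1000 spike-in counts had medians of 64371 in matPlag1KO and 42578 in WT oocytes. The matPlag1KO groups did not overlap at either step, in comparisons that called 63.8% and 48.6% of all genes. The share of all genes whose groups did not overlap was not computed for any comparison here.

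Seen against the general fall, Nap1l1, Hira and Nasp were above the all-gene median from MII to 2c in WT, and the other 7 genes were below it. Under TMM factors, which set the bulk of genes equal between stages and shifted the WT all-gene median from -1.46 to -0.03, Nap1l1 was higher at 2c (1.40, adjusted p = 1.50e-06), Chaf1b and Nasp had values of 0.01 and 0.47 that were not called, and the falls of Npm3 (-0.88, adjusted p = 0.172) and Chaf1a (-0.89, adjusted p = 0.0558) were no longer called. Under the same factors 2 of the 10 genes were called from 2c to 8c in WT, Npm2 and Asf1b, both lower, where 8242 of all 16511 genes were called. The WT all-gene median from MII to 2c was -2.17 in plate A alone and -0.67 in plate B alone. From 2c to 8c plate A alone called 1 of the 10 genes in WT and 2 in matPlag1KO, where it called 4026 and 4306 of all 15073 genes.

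**Figure D2:**
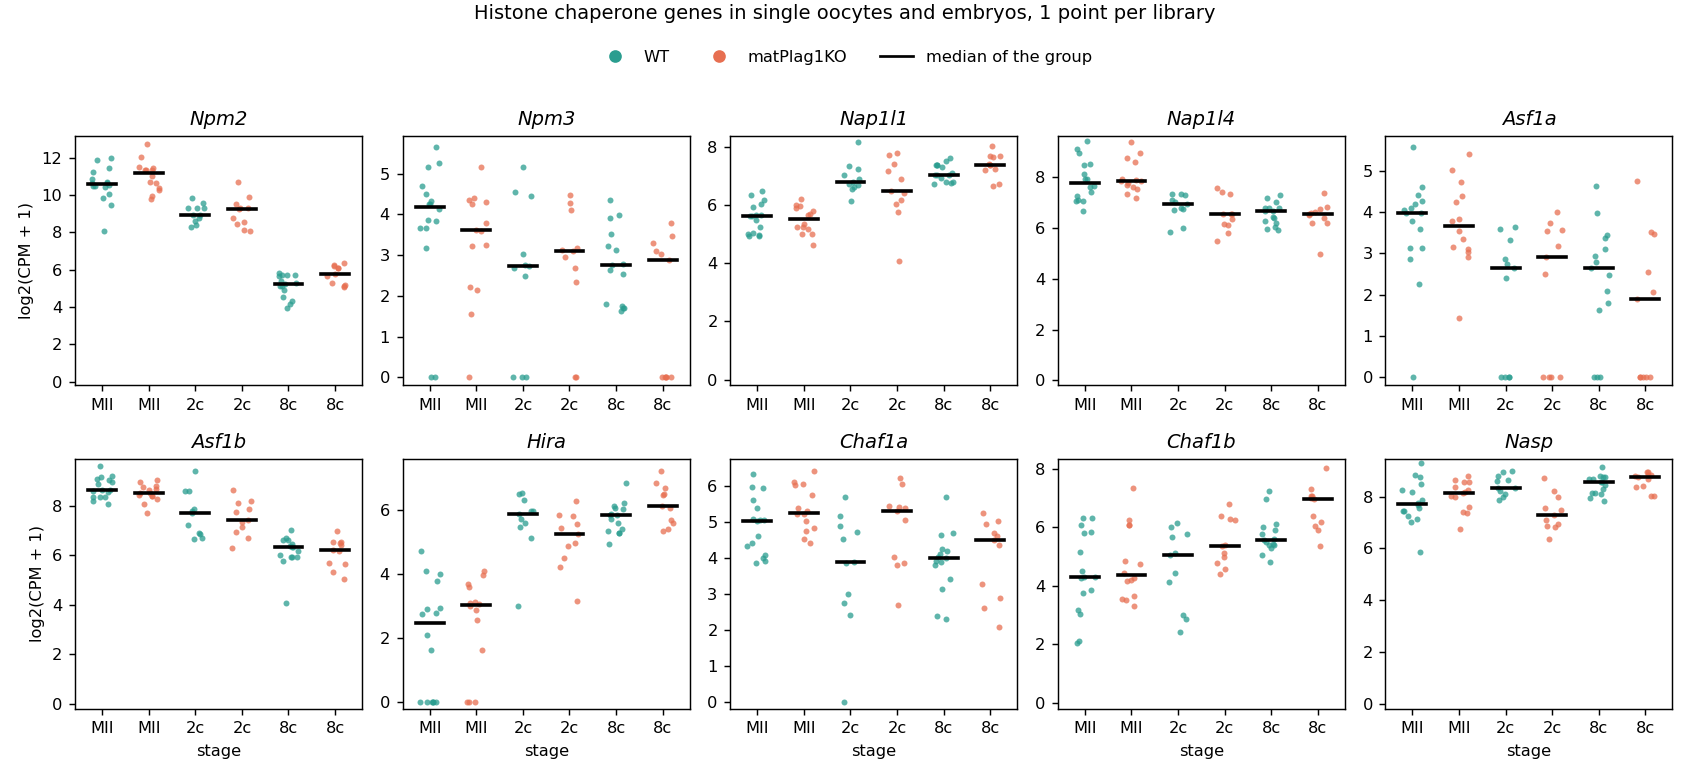
Level of each gene in every library kept, as log2(CPM + 1), with 1 panel per gene and its own axis. Green points are WT, orange points matPlag1KO, and black lines the medians of the groups. Npm2 steps down at each stage, Hira steps up after MII, and Nasp is low in most 2c embryos labelled matPlag1KO, with a median of 155 CPM against 319 CPM in WT.

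The second comparison asked whether loss of maternal Plag1 went with different levels of these transcripts at each stage. For it the libraries were scaled by TMM factors within the fit, and levels are given in CPM. One gene at 1 stage passed the test: Nasp was lower in 2c embryos labelled matPlag1KO. The background shares of genes called were 0.781% in oocytes (0 of 10 here), 4.92% at 2c (1 of 10) and 1.74% at 8c (0 of 10), and 1690, 3380 and 2363 genes had an unadjusted p under 0.05. The median log2 fold changes of the 10 genes were 0.09, -0.18 and 0.19, beside 0.00, 0.12 and 0.00 over all genes.

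**Figure D3:**
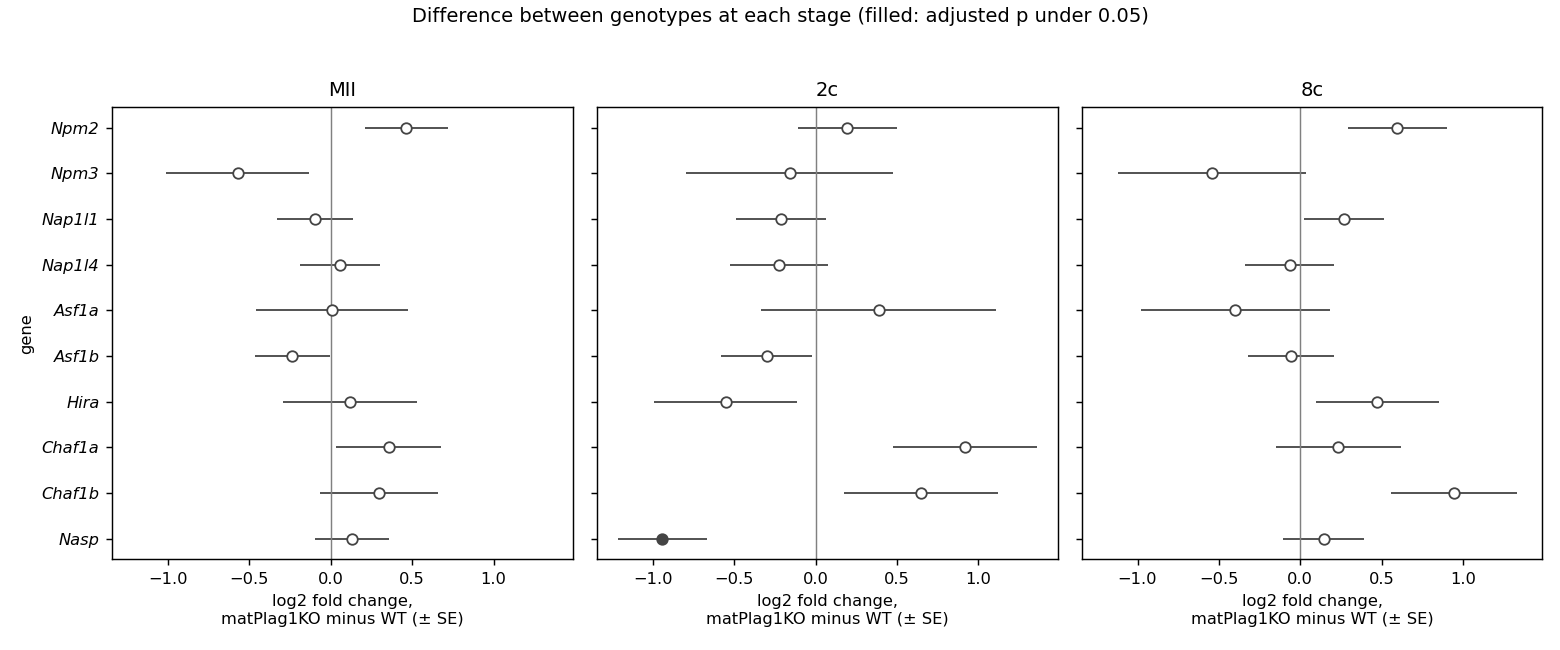
Log2 fold changes of matPlag1KO against WT for the 10 genes at MII, 2c and 8c, with bars of 1 SE. The 1 filled point, Nasp at 2c with -0.94, has an adjusted p under 0.05, and the open points of the other genes lie between -0.57 and 0.95.

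Nasp had 232 to 512 CPM in WT 2c embryos (median 319) and 81.2 to 422 CPM in those labelled matPlag1KO (median 155). Of the 11 labelled matPlag1KO 8 were below all 11 WT embryos, 1 was above the WT median, and the ranges overlapped. The level was 1.92-fold lower (log2 fold change -0.94, SE 0.27, adjusted p = 0.0311), and 2.62% of all genes were called as lower in this comparison. In plate A the medians were 336 CPM in 4 WT and 179 CPM in 5 embryos labelled matPlag1KO, and in plate B 319 CPM in 7 and 146 CPM in 6. Fitted alone, plate A gave -0.80 (SE 0.48, adjusted p = 0.618) and plate B -1.19 (SE 0.35, adjusted p = 0.0395). Plate A alone called 0 of all 15073 genes at 2c, and plate B alone 502 of 15161. In the same embryos the summed 2c markers had medians of 199 CPM in WT (78.1 to 1005) and 433 CPM in those labelled matPlag1KO (219 to 587), and the summed oocyte markers of 3468 and 5263 CPM. Their part in the difference of Nasp was not tested.

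In oocytes Nasp had 56.7 to 621 CPM in WT (median 208) and 107 to 440 CPM in matPlag1KO (median 284), a log2 fold change of 0.13 (SE 0.23). At 8c it had 226 to 559 CPM in WT (median 380) and 257 to 497 CPM in matPlag1KO (median 427), a log2 fold change of 0.14 (SE 0.25). Neither was called, and the ranges of the genotypes overlapped at both stages. The difference at 2c was itself compared with those at the other stages: it was lower than that in oocytes by 1.07 (SE 0.36, adjusted p = 0.0731) and lower than that at 8c by 1.08 (SE 0.37, adjusted p = 0.0870), so neither interaction passed the threshold. None of the 10 genes did, in interactions that called 3.31% and 2.30% of all genes. In DESeq2 both interactions of Nasp passed (adjusted p = 0.0216 and 0.0328).

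The call of Nasp at 2c was lost when all libraries were kept (-0.89, adjusted p = 0.0747), when the fit held the 2c groups alone (-0.89, adjusted p = 0.0543) and with spike-in totals as library sizes (-0.84, adjusted p = 0.163). DESeq2 kept it (-0.93, adjusted p = 0.00659). Leaving out 1 of the 22 2c libraries at a time also ended it in 6 cases, those of matPlag1KO replicates 1, 2, 8 and 13 and WT replicates 6 and 14, with log2 fold changes from -0.90 to -0.86 and adjusted p from 0.0523 to 0.0687.

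**Figure D4:**
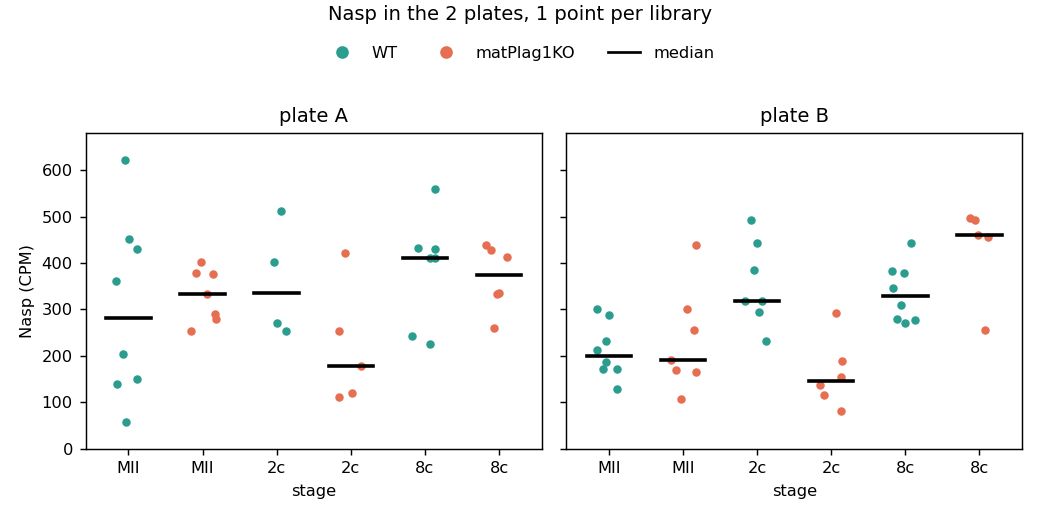
Nasp in CPM in every library kept, with plate A on the left and plate B on the right. Points are single oocytes or embryos, green for WT and orange for matPlag1KO, and black lines are medians. At 2c the matPlag1KO median is below the WT median in both plates, 179 against 336 CPM in plate A and 146 against 319 CPM in plate B.

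The remaining genes gave values without a call. Chaf1a at 2c was nearest in the other direction, with 0 to 50.3 CPM in WT (median 13.7) and 5.45 to 73.1 CPM in embryos labelled matPlag1KO (median 38.5), a log2 fold change of 0.92 (SE 0.44, adjusted p = 0.212). Of the 11 labelled matPlag1KO 8 were above the WT median and 2 above all WT embryos. Its partner Chaf1b had medians of 31.9 and 40.6 CPM at 2c (0.65, SE 0.47, adjusted p = 0.446). At 8c Chaf1b had 27.2 to 151 CPM in WT (median 46.3) and 40.0 to 262 CPM in matPlag1KO (median 125), a log2 fold change of 0.95 (SE 0.39, adjusted p = 0.215), with 10 of 11 matPlag1KO embryos above the WT median. That value reached an adjusted p of 0.0338 when the 8c groups were fitted alone (1.02). The summed 8c markers also differed between these 8c groups, with the medians given above, and their part in the value of Chaf1b was not tested.

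Npm2 had higher medians in matPlag1KO than in WT at every stage. In oocytes they were 2319 CPM (897 to 6901) against 1537 CPM (272 to 4033), and the log2 fold change of 0.46 (SE 0.26, adjusted p = 0.578) was not called. The same wells of the 2 plates held oocytes of opposite genotype whose deviations went together, and with the well as a block and plate as a term Npm2 was called as higher (0.34, SE 0.09, adjusted p = 5.69e-03), 1 of 10 genes in a fit that called 5.35% of all genes, 4.32% as higher. The matPlag1KO oocyte was the higher of the pair in 10 of 14 wells. In these oocytes the summed oocyte markers ran from 5395 to 32507 CPM in matPlag1KO and from 5868 to 34796 CPM in WT, with the medians given above, and gene counts per 1000 spike-in counts had medians of 64371 and 42578. Their part in the value of Npm2 was not tested. At 2c Npm2 had medians of 616 and 497 CPM (0.20, SE 0.30) and at 8c of 52.7 and 37.1 CPM (0.60, SE 0.30, adjusted p = 0.349), where 5 of 11 matPlag1KO embryos were above all 15 WT embryos.

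Hira at 2c had medians of 37.0 CPM in embryos labelled matPlag1KO and 58.3 CPM in WT, a log2 fold change of -0.55 (SE 0.44, adjusted p = 0.495). For Nap1l1, Nap1l4 and Asf1b the log2 fold changes lay between -0.30 and 0.27 at the 3 stages with SE of 0.23 to 0.30, so a difference of the size seen for Nasp lay more than 2 SE away from them. Npm3 and Asf1a had SE of 0.44 to 0.72 and values between -0.57 and 0.39. At such counts a change of that size was not detectable for them.

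A further 35 histone chaperones and partners of these proteins were described in the same way. They comprise the remaining nucleoplasmin and NAP relatives, the HIRA complex and other H3.3 factors, CAF-1 partners and proteins that handle histones at the fork, the Tlk kinases of ASF1, factors that acetylate and import new H4, FACT and transcription-linked chaperones, centromere factors, and Vps72 and Grwd1. Nap1l5 was also listed and was too low to be tested. From MII to 2c in WT 25 of the 35 were lower and 3 higher, against 51.3% and 14.1% of all genes, with a median log2 fold change of -1.63 beside -1.46 over all genes. From 2c to 8c 18 were higher and 1 lower, against 31.9% and 16.2%, with a median of 0.97 beside 0.53. All 5 HIRA complex and H3.3 genes (Ubn1, Ubn2, Cabin1, Daxx and Atrx) fell from MII to 2c, where Hira was higher and 51.3% of all genes were called as lower. From 2c to 8c the 3 factors for new H4 (Hat1, Ipo4 and Kpnb1) and 5 of the 8 CAF-1 partner and fork genes rose, a step at which 31.9% of all genes were called as higher.

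The 3 genes of that list with the largest change in size at each of the 3 WT steps (MII to 2c, 2c to 8c and MII to 8c) came to Set, Oip5, Spty2d1, Anp32a, Hat1 and Nap1l3. Set, a NAP relative and inhibitor of phosphatase PP2A, rose from a median of 0.111 per 1000 spike-in counts in WT oocytes to 8.37 at 2c (log2 fold change 5.27, SE 0.44, adjusted p = 4.48e-18) and 65.7 at 8c. Oip5, a centromere licensing factor, rose from 0.0918 to 2.51 at 2c (5.12, SE 0.50, adjusted p = 3.18e-15) and fell to 1.42 at 8c (-1.22, SE 0.42, adjusted p = 0.0121). Spty2d1 (a homolog of yeast Spt2) fell from 6.69 to 0.231 (-4.65, SE 0.43) and rose to 1.76 at 8c (3.10, SE 0.41). From 2c to 8c Anp32a changed by 4.17 (SE 0.52) and Hat1, the acetyltransferase of new H4, by 2.86 (SE 0.39), and from MII to 8c Nap1l3 changed by -4.74 (SE 0.66).

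Between genotypes 4 of the 35 were called at 2c, 1 of them at a higher level, against 0 in oocytes and 1 at 8c, where 4.92%, 0.781% and 1.74% of all genes were called. At 2c Grwd1, which loads histones and MCM proteins, had a median of 18.4 CPM in embryos labelled matPlag1KO and 68.3 CPM in WT (log2 fold change -1.74, SE 0.43, adjusted p = 9.22e-03). The centromere factors Mis18a (32.5 and 90.1 CPM, -1.37, SE 0.43, adjusted p = 0.0444) and Oip5 (55.4 and 131 CPM, -1.29, SE 0.41, adjusted p = 0.0464) were lower, and Vps72, which binds H2A.Z, was higher (53.5 and 31.2 CPM, 1.12, SE 0.31, adjusted p = 0.0227). Hat1 was higher at 8c, with medians of 545 CPM in matPlag1KO and 270 CPM in WT (0.99, SE 0.28, adjusted p = 0.0444). The part of the 8c markers in this value was not tested either. With spike-in totals as library sizes only Vps72 of the 4 at 2c remained called, where 285 of all 16511 genes were called. Plate A alone called 0 of the 4 and 0 of all 15073 genes. Plate B alone called Grwd1 of the 4 and 502 of all 15161 genes. Hat1 was lost under 6 of the alternatives. With the well as a block Hjurp and Supt6 were called as higher in matPlag1KO oocytes (0.95 and 0.89), 2 of the 35. That fit called 5.35% of all genes, 4.32% as higher.

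Across the 78 libraries some of the 10 genes had opposing patterns that followed stage, and other pairs were only weakly correlated. The log2(CPM + 1) levels of Npm2 and Asf1b had a Pearson correlation of 0.79, and those of Npm2 with Nap1l1 and Hira of -0.72 and -0.70. After the mean of each group was removed these values were -0.21, -0.17 and -0.20, and the largest value in size among the 10 genes was that of Npm2 and Nasp, 0.41. Among the weak pairs, before that removal, were Chaf1a and Chaf1b (-0.17) and Chaf1b and Nasp (0.07). All libraries of a stage share its RNA content and depth, so these are descriptions only. Among the genes whose mean reached 20 CPM in some group, the most alike in pattern to each gene was Ggct for Npm2 (0.96), Hmces for Asf1b (0.87), Glrx2 for Nap1l1 (0.86), Nop16 for Hira (0.84), Itsn2 for Nap1l4 (0.78), Nsa2 for Nasp (0.75), Mcm9 for Asf1a (0.70), Nol3 for Chaf1b (0.65), Vps39 for Chaf1a (0.62) and Atxn7l1 for Npm3 (0.52). Mcm9 is the gene that overlaps Asf1a on the opposite strand.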

How the data were processed

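Single oocytes and embryos were lysed and made into 5′-end (STRT) libraries in 2 pools, plates A and B, with ERCC RNA added in the reverse transcriptase mix. The counts were made and deposited by the authors as whole numbers per gene: reads sharing a molecular identifier were joined, aligned with TopHat to the mouse build mm9 and counted per gene of the UCSC annotation with HOMER (version not given in the sources used here), with no normalization. The strand setting of the counting is not given there either. All columns of the table matched a labelled sample. No libraries of the same group agreed within sampling noise (for the closest pair, chi-square divided by its degrees of freedom was 3.54). Libraries of different groups, among them the oocytes of opposite genotype in the same well, were not compared in this way.

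From these counts, 12 of 90 libraries with a median under 1 CPM were left out, which left 78. Genes were tested where 5 or more kept libraries reached 1 CPM, 16511 in all, with edgeR 4.0.16 (glmQLFit and glmQLFTest, R 4.3.3) in 1 fit of 6 groups, with Benjamini-Hochberg adjustment over all genes at 0.05. TMM factors scaled the genotype differences and interactions, and the spike-in total of each library, 6645 to 15428 counts, was the library size for stage changes. The fits of the genotype difference at 2c and of the WT change from MII to 2c were tested on simulated data. There the libraries were independent, all genes had the same spread, and the planted changes were larger than that of Nasp. Smaller changes and libraries that go together by well were therefore not covered. Alternatives were all libraries, no filter, DESeq2 1.42.0, plate as a term, spike-in totals, median-ratio factors, TMM factors for stages, each plate alone, the 2 compared groups alone, and a well block. Wells of the same position held oocytes of opposite genotype in the 2 plates. After removal of group means over 8613 genes, 12 of 14 such pairs had correlations over 0.1 (-0.061 to 0.75). Each pair spans both plates, and after removal of group and plate means all 14 did (0.142 to 0.772), and 13 of 14 correlated best with their own well, so the wells were taken to pair the oocytes. At 2c 2 such pairs had 0.016 and 0.18, so no block was used. Wells that held the same genotype in both plates also correlated after the same removal, from 0.027 to 0.26 at 2c and from 0.083 to 0.40 at 8c. Such libraries were treated as independent in the tests at these stages, and the p-values take no account of this.

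Named were the 10 genes, Plag1, members of the list of related chaperones called between genotypes at any stage, up to 3 of that list with the largest change in each WT stage change, and for each of the 10 the gene with the highest Pearson correlation among genes whose mean reached 20 CPM in some group. The members and lists were chosen with earlier results of these data known.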

Additional observations from a re-analysis of the deposited data

Results flagged for a closer look

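Grwd1, a loader of histones and MCM proteins from the list of related chaperones, differed between genotypes at 2c in a way that differed from the other stages, by a test of the interaction itself. Its log2 difference at 2c was lower than that in oocytes by 2.03 (interaction -2.03, SE 0.59, adjusted p = 0.0350 by edgeR's quasi-likelihood test) and lower than that at 8c by 2.02 (interaction -2.02, SE 0.55, adjusted p = 0.0296). In each interaction Grwd1 was 1 of 35 listed genes called, against 3.31% and 2.30% of all genes. The list was written with earlier results of these data known. With spike-in totals as library sizes the first was -2.26 (adjusted p = 0.0398) and the second -1.91 (adjusted p = 0.119), so the second call was lost. Over the alternatives run for interactions, the adjusted p of the first ran from 0.00385 to 0.0398 and that of the second from 0.00269 to 0.119. Interactions were not refitted in each plate alone, with median-ratio factors, with the compared groups alone or with the well block.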

How the results depend on the processing

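For values called between stages, 260 of the recomputed values kept direction and call, 31 kept direction without the call and 3 reversed. For the 1 value called between genotypes, Nasp at 2c, 5 kept both and 4 lost the call. Among values not called, 246 between genotypes, 101 between stages and 96 interactions kept direction and stayed uncalled, 23, 20 and 1 reversed, and 2, 5 and 2 became called. The causes of the changes listed here were not tested. With all 90 libraries kept, reversed log2 differences between genotypes were Nap1l4 -0.021, Asf1a -0.050 and Nasp -0.026 at MII, Asf1a -0.20 at 2c and Nasp -0.090 at 8c. There the interaction of Asf1a between 2c and MII was -0.15, Chaf1a from 2c to 8c in matPlag1KO was 0.14, and 0 of 10 genes were called between genotypes at 2c. With spike-in totals for the genotype comparison, reversed values were Nap1l1 0.36 and Asf1b 0.26 at MII, Npm3 0.062 at 2c, and Nap1l4 0.030 and Asf1b 0.0048 at 8c, with 0 of 10 called at 2c. With TMM factors between stages, reversed values in WT were Nap1l1 1.40, Chaf1b 0.013 and Nasp 0.47 from MII to 2c, Npm3 -0.49, Nap1l4 -0.28, Hira -0.020 and Chaf1a -0.13 from 2c to 8c, where 2 of 10 were called, and Chaf1b 0.87 and Nasp 0.49 from MII to 8c. In matPlag1KO they were Nap1l1 1.28 and Chaf1b 0.36 from MII to 2c, Nap1l4 -0.13 and Asf1a -0.40 from 2c to 8c, and Nasp 0.50 from MII to 8c. In plate A alone they were Nap1l4 -0.12 and Hira -0.34 at MII, Asf1a -0.51 at 2c, Hira -0.16 and Nasp -0.10 at 8c, Npm3 -0.29 from 2c to 8c in WT and Chaf1b -0.29 from MII to 8c in matPlag1KO, and 0 genes were called at 2c, 1 from 2c to 8c in WT and 2 in matPlag1KO. In plate B alone they were Npm3 0.34, Nap1l1 0.20 and Asf1a -0.21 at MII, Npm2 -0.050, Npm3 0.45 and Asf1b 0.12 at 2c, and Nap1l4 0.084 at 8c. Between stages plate B alone reversed Nap1l1 0.46 from MII to 2c and Chaf1b 1.45 and Nasp 0.65 from MII to 8c in WT, and Npm3 0.30 and Chaf1a 0.41 from 2c to 8c and Nasp 0.28 from MII to 8c in matPlag1KO. With only the 2 groups compared in the fit, 0 of 10 were called at 2c and 1 at 8c. With the well as a replicate block, 1 of 10 was called at MII, Npm2, and Asf1a reversed to -0.095. In DESeq2 1 of 10 passed in both interactions. Leaving out 1 2c library at a time, chosen after seeing the data, left 0 to 1 genes called at 2c.

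Counts of all genes called moved by more than 1.5 times as follows. Between genotypes the 129 at MII became 72 in DESeq2, 47 with the 2 groups alone, 463 in plate B and 831 with the block. The 812 at 2c became 285 with spike-in totals, 0 in plate A (1339 genes at an unadjusted p under 0.05 in edgeR) and 502 in plate B, and the 287 at 8c became 106, 6 and 46. The interactions of 546 and 380 became 312 and 92 with spike-in totals, and the second 621 in DESeq2. Between stages the WT counts of 10800 (MII to 2c) and 7950 (2c to 8c) became 6961 in plate B and 4026 in plate A, and the matPlag1KO 8025 (2c to 8c) became 4306 in plate A. Under TMM factors the higher and lower calls changed from 2326 and 8474 to 4540 and 3814 (WT, MII to 2c), from 5269 and 2681 to 3475 and 4767 (WT, 2c to 8c), from 4478 and 7199 to 5949 and 5996 (WT, MII to 8c), from 2231 and 8306 to 4799 and 3192 (matPlag1KO, MII to 2c), from 4812 and 3213 to 3501 and 5008 (2c to 8c) and from 3983 and 7458 to 5708 and 5617 (MII to 8c). With spike-in totals the genotype calls changed from 51 and 78 to 97 and 40 at MII, from 379 and 433 to 191 and 94 at 2c and from 200 and 87 to 91 and 15 at 8c, and the interactions from 268 and 278 to 111 and 201 and from 193 and 187 to 61 and 31. At 2c, the stage of lowest depth, Npm3 and Asf1a had 21 and 10 counts over all 11 WT libraries, which limits what could be seen for them.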
